A study of Danio rerio with 6 samples.

Results

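The lens crystallin and lens fiber genes of the zebrafish were followed in whole embryos at 3 days post fertilisation, in csf1ra mutants and in wild type. The set was defined by gene symbol, with no threshold on a measured value, by a choice made when earlier results of these data were known: every gene named as an alpha, beta or gamma crystallin in the authors' deposited table, together with mipa, mipb, lim2.1, lim2.4, bfsp2 and grifin. This gave 64 genes of the 31621 gene IDs in that table, made up of 3 alpha, 14 beta and 41 gamma crystallins and 6 other lens fiber genes. Mutant embryos had the csf1ra-/- genotype, a knockout of the colony-stimulating factor 1 receptor made with CRISPR/Cas9, with 3 libraries. Wild-type embryos, whose library titles carry the name TU, gave the other 3 libraries. Both genotypes were collected at the same age with no agent named other than the anaesthetic MS-222 at collection. The label csf1ra-/- is read here as a mutation of the whole embryo. The labels give 30 embryos, which can be read as per genotype or per sample. They name neither the allele nor how many mutant lines were used. Whether each library stands for a clutch of its own is not given, and p-values therefore reflect only the scatter among these libraries, some of which may be technical.

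The vertebrate lens is made of long fiber cells that fill themselves with crystallins, water-soluble proteins packed so densely that they set the refractive index of the tissue. Alpha crystallins belong to the small heat shock proteins and act as chaperones that keep damaged proteins in solution, while beta and gamma crystallins share one fold and are mainly structural, the beta type forming dimers and larger assemblies and the gamma type staying monomeric. Fish lenses are rich in a methionine-rich gamma family, the gamma M crystallins, which come in tandem copies. Fiber cells also depend on membrane and cytoskeletal proteins, among them the water channel aquaporin 0, the membrane protein Lim2 and the beaded filament protein Bfsp2. csf1ra itself is known for its part in macrophages, microglia and yellow pigment cells and is not a lens gene.

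Levels are in FPKM, fragment numbers scaled to transcript length and library size, and so are already per length. Between 17291 and 17653 genes were listed per library. Depth is unknown, since only scaled values are listed, and the spread between libraries is the error given. Differences are log2 fold changes of mutant over wild type computed on log2(FPKM + 1), a scale that makes low genes seem to change less than they did. Each has its standard error (SE) and the adjusted p of limma over 15475 genes. The targeted gene csf1ra was not listed in mutant replicates 1 and 2 and stood at 0.563 FPKM in mutant replicate 3, against 4.54, 4.07 and 3.72 FPKM in wild type. It fell in the mutant, taking a missing listing as 0 (log2 fold change -2.14, SE 0.22, limma adjusted p = 0.00284), and an exact two-sided permutation test gave p = 0.1, the smallest that 3 against 3 libraries allow.

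Of the 64 genes, 37 had a total in at least 1 library and 28 reached at least 1 FPKM in at least 3 libraries, which is what the test required. These 28 were 1 alpha, 11 beta and 10 gamma crystallins and all 6 of the other fiber genes, and 25 of them stood at 1 FPKM or more in every library. Another 9 were listed below that level: cryabb, cryba1a, crybb2, crygm2b, crygm2c, crygm2e, crygm3, crygm4 and crygm7. The remaining 27 had no total. For 15 of those, all crygm2d copies, the authors' deposited table gives the same locus as crygm2d1. Their transcripts may have been counted within 1 merged unit. A shared locus alone does not settle this. crygm2d19 has the same locus and a total of its own, but its listed events lie on the opposite strand and its first exon lies outside that locus. Of the 12 others, crygm2d11, crygm2d15 and crygm2f had a transcript tested in the authors' deposited table, and 9 had none, namely cryaba, crybb3, crygm1, crygm2a, crygm6 and the 4 gamma S genes crygs1 to crygs4.

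Crystallin RNA was lower on average in mutant embryos than in wild type in every class, and by most in the alpha class. All crystallins summed to 4637, 6622 and 5486 FPKM in the mutant libraries, against 6400, 6789 and 7520 FPKM in wild type. The means were 5582 ± 996 FPKM in the mutant and 6903 ± 569 FPKM in wild type (SD, n = 3 each), 19.1% lower in the mutant. The 2 genotypes overlapped, because mutant replicate 2 stood above wild-type replicate 1. Without mutant replicate 1, the lowest library, the log2 ratio of the sums was -0.19, against -0.31 with all 6 libraries. As a share of all summed gene FPKM, crystallins held 1.28%, 1.88% and 1.54% in the mutant and 1.82%, 1.87% and 2.03% in wild type. In bulk RNA of whole embryos, fewer lens cells and less crystallin RNA per lens cell cannot be told apart.

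The classes differed in how far apart the genotypes stood. Beta crystallins summed to 1523, 2152 and 1821 FPKM in the mutant and to 2221, 2345 and 2725 FPKM in wild type, so that each mutant library lay below each wild-type library. The mean was 24.6% lower in the mutant. Gamma crystallins summed to 3103, 4453 and 3649 FPKM in the mutant and to 4158, 4421 and 4768 FPKM in wild type, a mean 16.0% lower with overlapping genotypes. Without the merged crygm2d1 unit they summed to 707, 983 and 830 FPKM in the mutant and to 1005, 1035 and 1184 FPKM in wild type. That mean was 21.9% lower in the mutant, with no overlap, so the overlap of the gamma class rests on the unit. Alpha crystallins, far less abundant at this age, summed to 10.5, 16.6 and 16.7 FPKM in the mutant and to 20.2, 23.3 and 26.6 FPKM in wild type, 37.5% lower and with no overlap. The 6 other fiber genes summed to 131, 170.1 and 154 FPKM in the mutant and to 173, 179 and 196 FPKM in wild type, 17.1% lower and also with no overlap. No test was made of these sums, since the choice of this gene set was made with earlier results known.

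**Figure D1:**
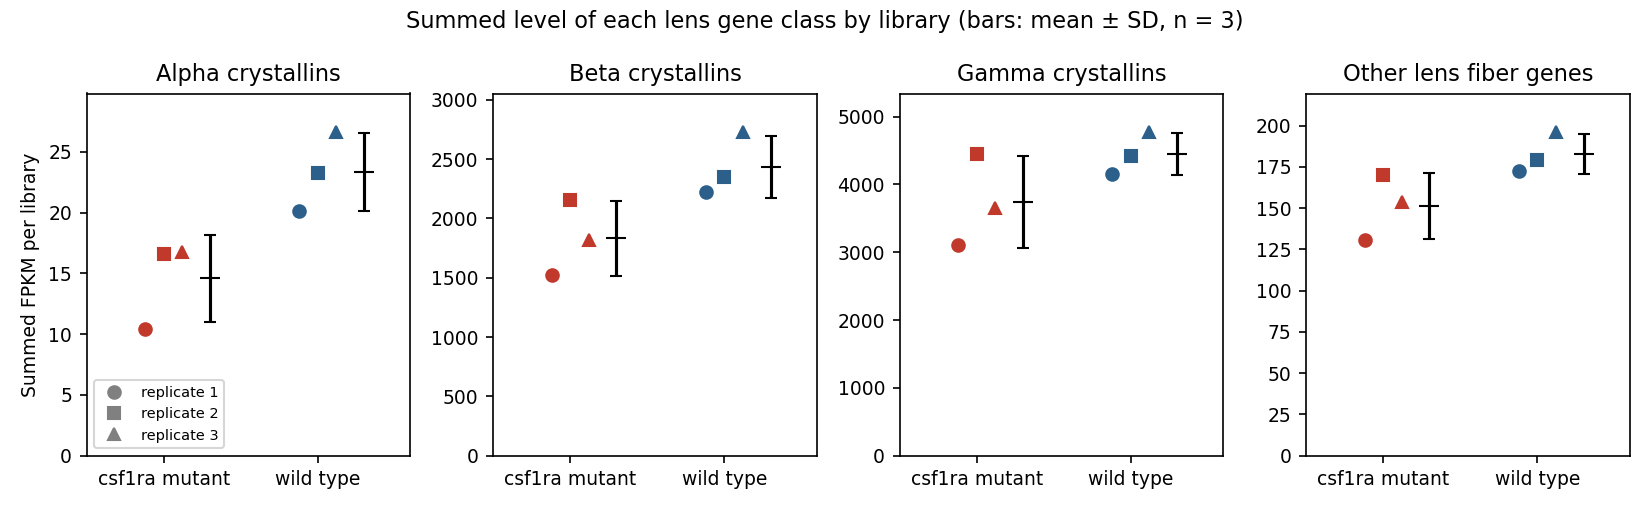
Summed FPKM of the alpha, beta, gamma and other lens fiber genes, 1 panel per class with its own axis from 0; points are libraries, mutant on the left and wild type on the right, with the mean and SD of 3 libraries. The mutant libraries lie below all wild-type libraries in the alpha, beta and other classes, and the gamma class overlaps.

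In the alpha class, cryaa carried nearly all of the RNA. cryaa (ENSDARG00000053502; GRCz10 chromosome 1, 28293049 to 28297091, plus strand), the alpha A crystallin chaperone, had 10.1, 16.2 and 16.4 FPKM in the mutant, against 19.6, 22.8 and 26.3 FPKM in wild type. All 3 mutant values lay below all 3 wild-type values, and mutant replicate 1 was the lowest. Its log2 fold change was -0.67 (SE 0.19, 95% interval -1.11 to -0.23), and it did not pass the test (limma adjusted p = 0.139). The alpha B copy cryabb lay at 0.336, 0.418 and 0.344 FPKM in the mutant and at 0.518, 0.444 and 0.297 FPKM in wild type, below the level required for a test and with overlapping genotypes. The second alpha B copy, cryaba, had no total.

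In the beta class all 11 fitted genes had a lower log2 mean in the mutant, with a median log2 fold change of -0.45. Genotypes did not overlap, with the mutant lower, in 7 of the 11, against 10.2% of all genes tested. Lens genes vary together, so the 7 are not independent measurements. The acidic beta crystallin cryba4 (GRCz10 chromosome 10, 44195430 to 44204668, plus strand) was the most abundant, with 320.5, 439 and 409.8 FPKM in the mutant, against 456, 484 and 523 FPKM in wild type. Its genotypes did not overlap (log2 fold change -0.33, SE 0.12, limma adjusted p = 0.240). The basic beta crystallin crybb1, on the other strand of the same region, had 178, 275 and 202 FPKM in the mutant, against 250.2, 294 and 379.6 FPKM in wild type. Here mutant replicate 2 stood above wild-type replicate 1 and the genotypes overlapped (log2 fold change -0.50, SE 0.20, limma adjusted p = 0.282).

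Of the beta genes, the 2 on chromosome 14 were nearly equal in level. cryba1l1 had 191, 252 and 217 FPKM in the mutant, against 280.3, 289 and 327 FPKM in wild type. crybb1l1 had 162, 253 and 210.2 FPKM in the mutant, against 286, 286 and 336 FPKM in wild type. Neither gene overlapped between genotypes, with log2 fold changes of -0.45 (SE 0.11, limma adjusted p = 0.101) and -0.56 (SE 0.16, limma adjusted p = 0.141). crybb1l2, on chromosome 1, had 168, 249 and 201 FPKM in the mutant, against 249, 306 and 336 FPKM in wild type. Its genotypes were barely separate, since mutant replicate 2 (248.8 FPKM) and wild-type replicate 1 (249.1 FPKM) almost coincided (log2 fold change -0.53, SE 0.16, limma adjusted p = 0.164).

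The cryba1 and cryba2 copies were likewise lower in most libraries. cryba1b had 154, 213 and 185 FPKM in the mutant, against 244, 248 and 288 FPKM in wild type, with no overlap (log2 fold change -0.51, SE 0.13, limma adjusted p = 0.0993). cryba2b had 176, 226 and 197 FPKM in the mutant, against 246, 238 and 252 FPKM in wild type, also with no overlap (log2 fold change -0.30, SE 0.10, limma adjusted p = 0.180). cryba2b rests on first exons, since its listed last exon had only 0.146 to 0.993 FPKM. Its duplicate cryba2a behaved less uniformly. cryba2a had 133, 194 and 162 FPKM in the mutant and 167, 152 and 225 FPKM in wild type, so that the genotypes interleaved (log2 fold change -0.15, SE 0.18, 95% interval -0.56 to 0.27). Without wild-type replicate 3 its log2 fold change was 0.019, and its direction therefore rests on that library.

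Among the lower beta genes, cryba1l2 came nearest to the threshold of all 28 fitted genes. It had 6.88, 7.92 and 8.59 FPKM in the mutant, against 11.3, 10.4 and 12.0 FPKM in wild type (log2 fold change -0.48, SE 0.11, limma adjusted p = 0.0728). Its value rests on its first exon alone, since no last exon was listed. crybgx, placed in the beta class by the letters of its symbol alone, had 30.5, 41.0 and 26.8 FPKM in the mutant. It had 29.5, 34.9 and 44.4 FPKM in wild type, with interleaved libraries. crybb1l3 had 1.25, 1.37 and 1.82 FPKM in the mutant and 1.39, 1.55 and 2.34 FPKM in wild type. These last 2 overlapped, with log2 fold changes of -0.14 each and limma adjusted p of 0.760 and 0.759.

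Acidic and basic beta genes sat head to head in 4 places, transcribed away from each other, and the balance between partners differed from pair to pair. At the chromosome 14 pair, with first exons 2837 bases apart, the FPKM ratio of cryba1l1 to crybb1l1 was 1.18, 0.995 and 1.03 in the mutant and 0.979, 1.01 and 0.9749 in wild type. cryba4 and crybb1, 14836 bases apart, stood at ratios of 1.80, 1.59 and 2.03 in the mutant and 1.82, 1.65 and 1.38 in wild type. On chromosome 1, 4954 bases separated cryba1l2 from crybb1l2, and there the acidic partner was far the lower, at a ratio of 0.0318 to 0.0453 over the 6 libraries. The chromosome 15 pair of cryba1a and crybb1l3, 1826 bases apart, was low on both sides. cryba1a had 0.348, 0.826 and 0.557 FPKM in the mutant and 1.01, 0.556 and 1.11 FPKM in wild type, while its duplicate cryba1b on chromosome 21 was 242 to 447 times as abundant over the 6 libraries.

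**Figure D2:**
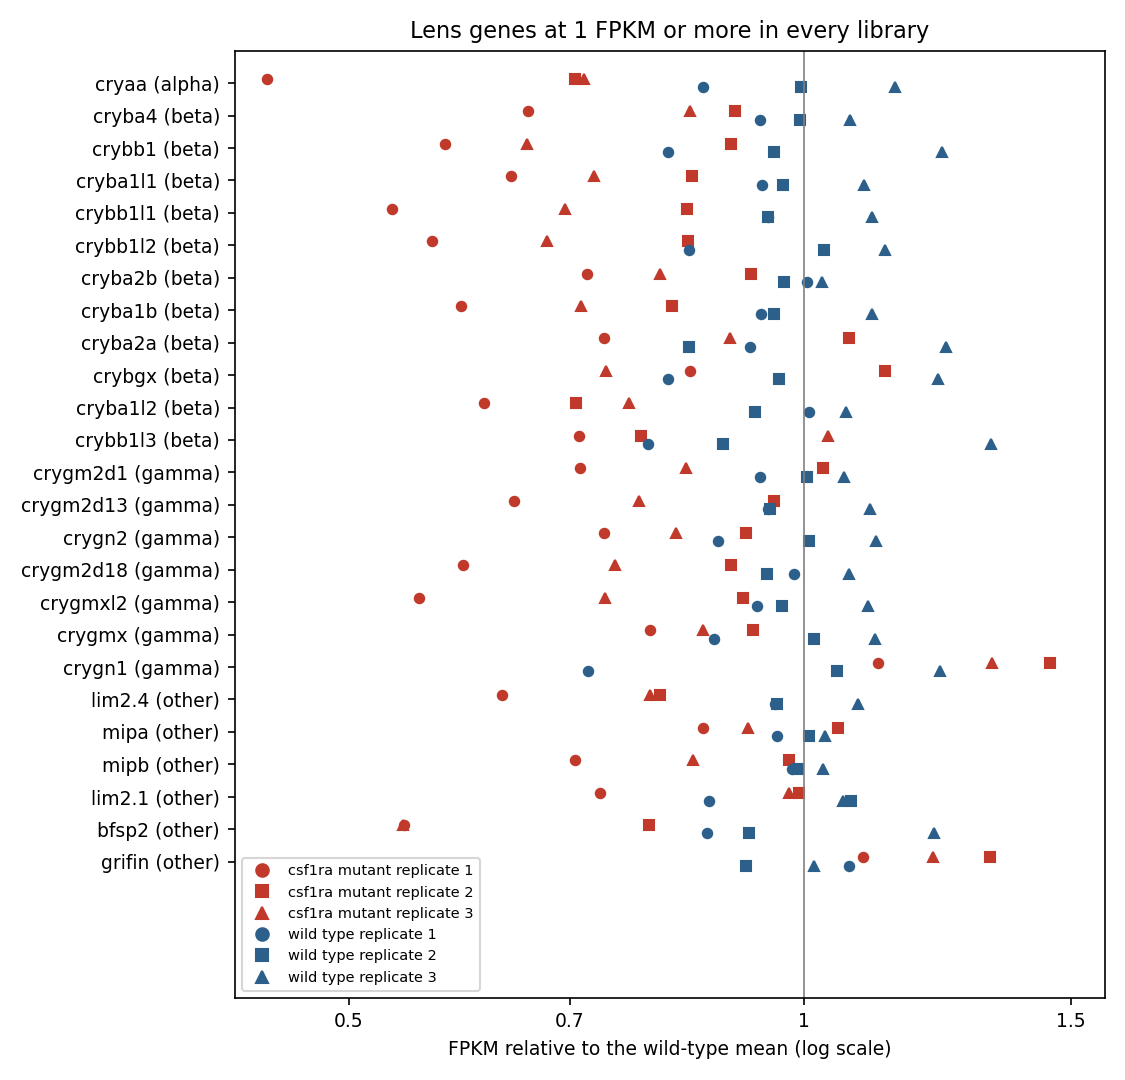
FPKM of each lens gene in each of the 6 libraries as a ratio to its wild-type mean, on a log axis, for the 25 genes at 1 FPKM or more in every library; mutant libraries are red and wild-type libraries blue, and the marker shape gives the replicate. Mutant replicate 1 lies farthest left and wild-type replicate 3 farthest right in most genes, and grifin is the gene whose mutant points all lie right of its wild-type points.

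The gamma class was dominated by crygm2d copies on chromosome 9, which the authors' assembly joined into 1 unit under the name crygm2d1. This unit had 2397, 3470.3 and 2819 FPKM in the mutant, against 3153, 3386 and 3583 FPKM in wild type, and ranked 6th of 19364 genes by mean FPKM. Mutant replicate 2 stood above 2 of the wild-type libraries, so the genotypes overlapped (log2 fold change -0.24, SE 0.13, 95% interval -0.54 to 0.07, limma adjusted p = 0.438). The value rests on first exons. Last exons of the unit summed to only 7.09% to 17.1% of its first exons, and on last exons alone the log2 fold change was 0.17. It was -0.019 with quantile normalisation (limma adjusted p = 0.954), -0.11 when mutant replicate 1 was left out, and -0.37 when mutant replicate 2 was. The authors' deposited table places 17 crygm2d genes at this locus (GRCz10 chromosome 9, 22316749 to 22528713). The first and last exons of the unit were listed on the minus strand, and its first exon at 22306490 to 22306561 lies outside that locus. Tandem copies of such likeness can share or split reads, so the level of any single copy is uncertain.

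Within the unit, 17 first exons were listed in all 6 libraries, over 222 kb, and could be followed one by one. They averaged 36.2 to 421 FPKM over the 6 libraries, and 14 of them reached 100 FPKM or more. The mean was lower in the mutant at 15 first exons and higher at 2, with a median log2 ratio of the genotype means of -0.23 and a range of -0.57 to 0.25. Counting from the upstream end of the unit, the 14th first exon had the lowest ratio, with 89.9, 134 and 94.4 FPKM in the mutant, against 149.6, 149.9 and 174 FPKM in wild type. The 15th, the most abundant, had 284, 427 and 363 FPKM in the mutant, against 468, 472 and 515 FPKM in wild type. Neither overlapped between genotypes, and the same was true of the 2nd and the 10th, all 4 lower in the mutant. The 8th went the other way, with 259, 371 and 304 FPKM in the mutant, against 274, 299 and 213 FPKM in wild type, and overlapped. Among all genes tested, gene totals were lower in the mutant without overlap in 10.2% and higher without overlap in 12.1%. The 17 first exons lie in 1 unit and are not independent measurements. Fitted as features of their own, none of the 17 passed the test (smallest limma adjusted p = 0.118, at the 14th).

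The 4 first exons at the downstream end of the unit, 181 to 222 kb from its first, had log2 ratios of -0.57 to -0.36. They summed to 635, 974 and 770.3 FPKM in the mutant, against 1029, 1032 and 1153 FPKM in wild type, with no overlap and a ratio of means of 0.740. The other 13 had log2 ratios of -0.44 to 0.25. Their sum was 1762, 2496 and 2048 FPKM in the mutant, against 2124, 2354 and 2431 FPKM in wild type, with overlap and a ratio of 0.913. This division was drawn after the values were seen and was not tested. The last of the 4 ends at the same base as crygm2d15 in the authors' deposited table, so reads of that copy may be counted within the unit.

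**Figure D3:**
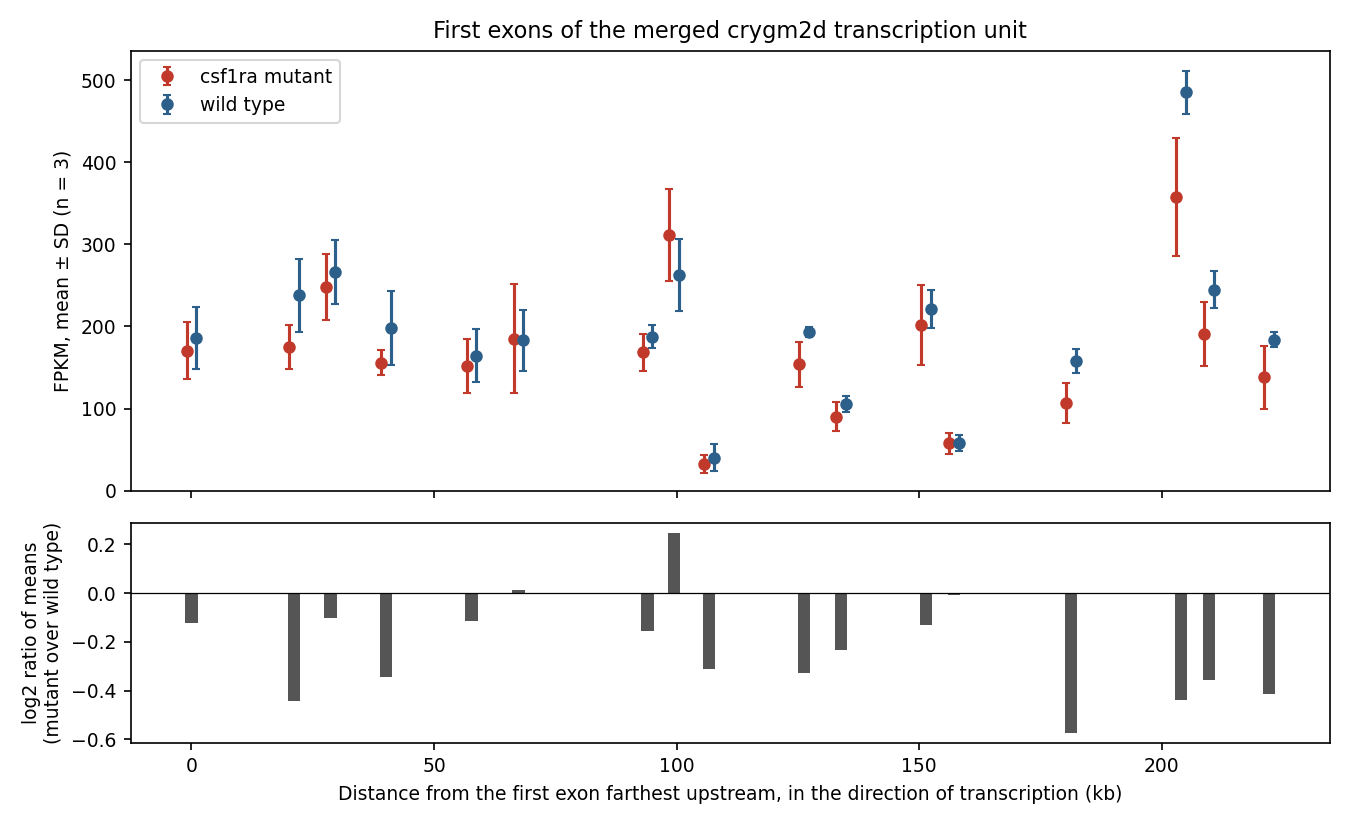
The 17 first exons of the merged crygm2d unit by distance in kb from the one farthest upstream; the upper panel gives FPKM as mean and SD of 3 libraries, mutant to the left of wild type, and the lower panel the log2 ratio of mutant mean over wild-type mean. The 4 first exons beyond 181 kb have log2 ratios of -0.57 to -0.36, and the 13 before them range from -0.44 to 0.25.

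Gamma genes outside the merged unit summed to 21.9% less in the mutant, with no overlap between genotypes. crygm2d13 had 228, 339 and 276 FPKM in the mutant, against 336, 337 and 392.5 FPKM in wild type, where only mutant replicate 2 reached the wild-type range (log2 fold change -0.35, SE 0.14, limma adjusted p = 0.292). crygm2d18 had 119, 178 and 149.5 FPKM in the mutant, against 196, 188 and 213 FPKM in wild type, with no overlap (log2 fold change -0.44, SE 0.14, limma adjusted p = 0.193). Both belong to the same chromosome 9 cluster and carry the same uncertainty as the unit.

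On chromosome 12, crygmxl2 had 85.7, 140.1 and 114 FPKM in the mutant, against 143, 149 and 169.7 FPKM in wild type, with no overlap (log2 fold change -0.47, SE 0.17, limma adjusted p = 0.239). Its neighbour crygmx had 92.1, 108 and 99.8 FPKM in the mutant, against 102, 118 and 129.7 FPKM in wild type. There mutant replicate 2 lay above wild-type replicate 1 (log2 fold change -0.22, SE 0.10, limma adjusted p = 0.375). The ratio of crygmxl2 to crygmx was 0.930, 1.30 and 1.14 in the mutant and 1.41, 1.26 and 1.31 in wild type.

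The gamma N crystallins, which combine features of beta and gamma genes, stood at very different levels. crygn2 had 167, 207 and 186 FPKM in the mutant, against 198, 228 and 252 FPKM in wild type, with overlap (log2 fold change -0.28, SE 0.11, limma adjusted p = 0.292). crygn1 had 2.09, 2.71 and 2.48 FPKM in the mutant, against 1.34, 1.96 and 2.29 FPKM in wild type, higher on average in the mutant with overlap (log2 fold change 0.27, SE 0.17, limma adjusted p = 0.495). Each mutant library therefore had a lower ratio of crygn2 to crygn1 than any wild-type library, with 79.8, 76.3 and 74.9 in the mutant and 148, 116 and 110.04 in wild type. This ratio was looked at after the values of both genes were seen and was not tested.

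The remaining fitted gamma genes were low or uneven. crygm5 had 1.24, 1.16 and 0.916 FPKM in the mutant and 1.67, 0.836 and 0.898 FPKM in wild type. crygmxl1 had 1.40, 1.52 and 0.651 FPKM in the mutant and 1.70 and 2.299 FPKM in wild-type replicates 1 and 3, and was not listed in wild-type replicate 2. crygm2d19 had 9.42 and 4.53 FPKM in mutant replicates 1 and 2, was not listed in mutant replicate 3, and had 23.8, 11.6 and 17.8 FPKM in wild type. Its value is uncertain, because the events listed under its name lie on the strand opposite to the unit and span several copies (log2 fold change -2.22, SE 0.80, limma adjusted p = 0.246, with the missing listing as 0). The log2 fold change was -1.25 without mutant replicate 3, -1.30 on last exons alone and -3.38 with a pseudocount of 0.1.

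Among the fiber genes that are not crystallins, bfsp2 and lim2.4 stood farthest below wild type. bfsp2, which encodes the beaded filament protein also called phakinin, had 11.2, 16.2 and 11.2 FPKM in the mutant, against 17.7, 18.9 and 25.0 FPKM in wild type, with no overlap (log2 fold change -0.64, SE 0.18, limma adjusted p = 0.133). lim2.4, 1 of the zebrafish genes for the lens membrane protein Lim2, had 38.6, 49.2 and 48.5 FPKM in the mutant, against 58.6, 58.7 and 66.5 FPKM in wild type, with no overlap (log2 fold change -0.43, SE 0.11, limma adjusted p = 0.103). lim2.1 was nearer to wild type. It had 16.1, 21.7 and 21.4 FPKM in the mutant and 19.0, 23.5 and 23.3 FPKM in wild type, with overlap (log2 fold change -0.15, SE 0.14, 95% interval -0.47 to 0.17).

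Zebrafish have a pair of aquaporin 0 genes. mipb had 23.0, 31.8 and 27.5 FPKM in the mutant, against 32.0, 32.2 and 33.5 FPKM in wild type, where mutant replicate 2 stood just below the wild-type libraries (log2 fold change -0.25, SE 0.11, limma adjusted p = 0.343). mipa had 32.3, 39.8 and 34.7 FPKM in the mutant, against 36.2, 38.0 and 39.0 FPKM in wild type, and mutant replicate 2 was the highest of all (log2 fold change -0.09, SE 0.09, 95% interval -0.30 to 0.12). The ratio of mipa to mipb was 1.41, 1.25 and 1.26 in the mutant and 1.13, 1.18 and 1.16 in wild type.

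grifin, a lens galectin-related gene, was the only fitted gene of the 28 whose mutant values all lay above its wild-type values. It had 9.37, 11.4 and 10.4 FPKM in the mutant, against 9.18, 7.85 and 8.70 FPKM in wild type. The gap between the lowest mutant library and the highest wild-type library was small, and grifin did not pass the test (log2 fold change 0.25, SE 0.10, 95% interval 0.01 to 0.49, limma adjusted p = 0.303).

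**Figure D4:**
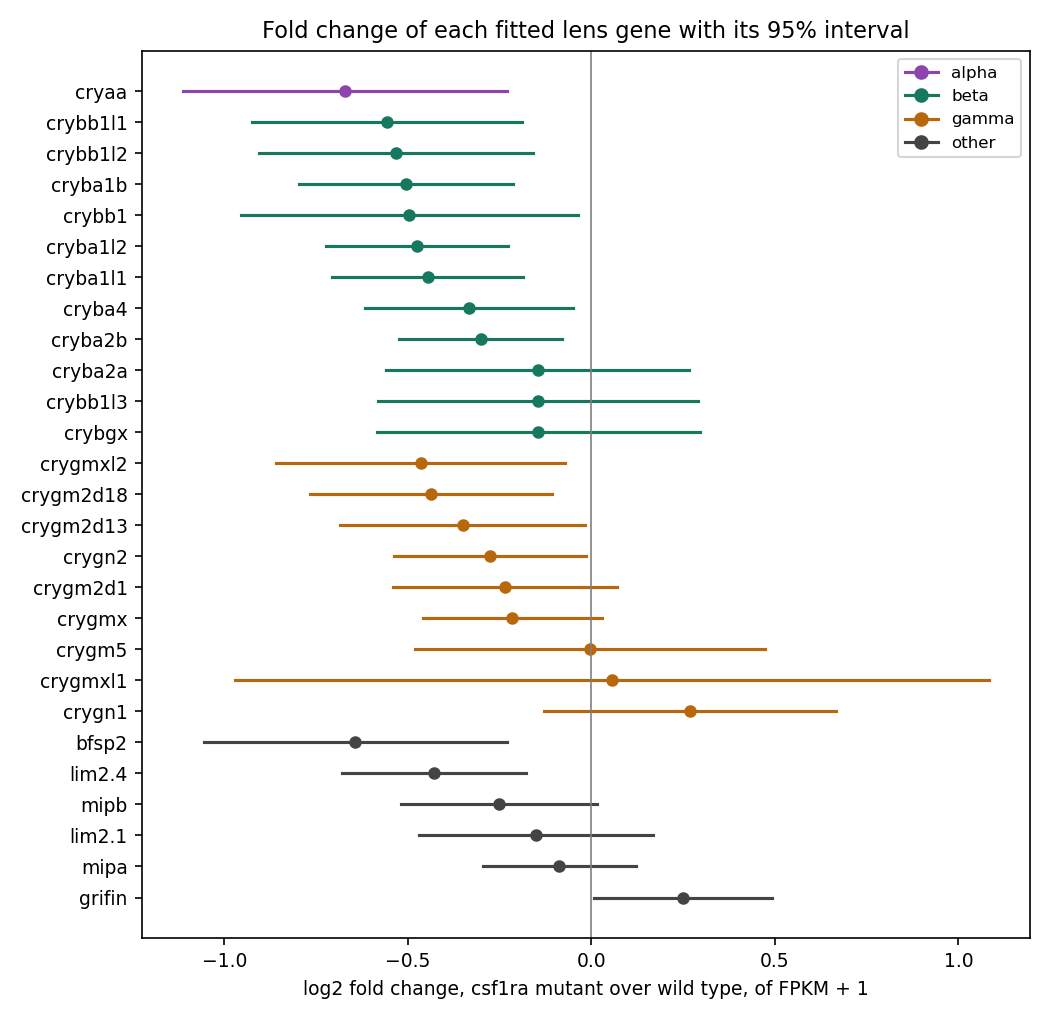
Log2 fold change of mutant over wild type with its unadjusted 95% interval from limma for the fitted lens genes, grouped by class; crygm2d19 is left out, and crygmxl1 is drawn with its missing wild-type listing as 0. Most points lie below 0, led by cryaa at -0.67 and bfsp2 at -0.64, and crygn1 (0.27), grifin (0.25) and crygmxl1 (0.06) lie above.

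Set against all genes, the lens genes leaned to the lower side without any single gene passing. Limma called 0 of the 28 at an adjusted p under 0.05, where 2.42% of the 15475 genes tested were called (1.2% lower and 1.21% higher in the mutant). At an unadjusted p under 0.05 there were 17 of the 28, against 15.9% of all genes, and 16 of those 17 were lower in the mutant. The log2 fold change was below 0 in 25 of the 28, with a median of -0.32, and the median over all genes tested was 0.02. By class the medians were -0.67 for cryaa alone, -0.45 for beta, -0.26 for gamma and -0.20 for the other fiber genes. Genotypes did not overlap, with the mutant lower, in 14 of the 28 genes, or 50.0%, against 10.2% of all genes tested. The mutant was higher without overlap in 1 of the 28, against 12.1% of all genes. Lens genes vary together, as the library order below shows, so such counts do not stand for independent measurements.

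The authors' own test of transcripts, which drew on reads that were not analysed here, gave more calls. Of the 64 genes, 49 had a tested transcript in the authors' deposited table, and 31 of these, or 63.3%, had at least 1 with an adjusted p under 0.05, against 30.1% of 18800 genes. Among the 49 are crygm2d copies, which can share or split reads, so this count is not of independent measurements. The authors' deposited table gave 25 of the genes its smallest adjusted p, 0.000466. How many of all genes share that value was not counted, so the 25 have no background to be read against. In it the significant genes were 1 of 2 alpha, 9 of 12 beta, 17 of 29 gamma and 4 of 6 other fiber genes, and 11 of the gamma genes were copies with no total. Its column names leave the genotype of each side unstated, and no direction was taken from the authors' deposited table. Of the 20 genes significant in the authors' deposited table that were also fitted here, 19 had a lower and 1, grifin, a higher mean FPKM in the mutant.

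The same libraries led in most lens genes. Mutant replicate 1 was the lowest of the 6 libraries in 21 of the 28 genes, where it was lowest in 15.1% of all genes tested, and wild-type replicate 3 was the highest in 22, against 13.4% of all genes. Within the mutant, replicate 2 was the highest in 23 genes. Replicate 1 was the lowest mutant library in 23 genes and the lowest wild-type library in 20. The median ratio to the wild-type mean over the 28 genes was 0.681, 0.913 and 0.784 in mutant replicates 1, 2 and 3 and 0.936, 0.960 and 1.10 in wild-type replicates 1, 2 and 3. Over all genes tested the same ratio was 0.986 to 1.02. Single genes moved with these libraries as well. Without mutant replicate 1 the log2 fold change was -0.015 for lim2.1, -0.023 for mipa, -0.13 for mipb, -0.20 for cryba4 and -0.012 for cryba2a. It was likewise -0.21 for crygm2d13, -0.28 for crygm2d18 and -0.28 for crygmxl2. Values also moved by more than 1.5 times for mipa (-0.17) and cryba2a (-0.28) without mutant replicate 2, for lim2.1 (-0.25) and crygn1 (0.13) without wild-type replicate 1, for lim2.1 (-0.10) and cryba2a (-0.26) without wild-type replicate 2, and for crygmx (-0.13) without wild-type replicate 3.

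Each gene was also taken per 1000 FPKM of summed crystallins. On that scale the genotypes overlapped in 16 of the 28 genes, the mutant was lower without overlap in 8 and higher without overlap in 4. cryba4, for example, averaged 70.0 in the mutant and 70.7 in wild type, with overlap. The 8 lower genes were cryaa, cryba1l1, crybb1l1, crybb1l2, cryba1b, crygm2d18, crygmxl2 and bfsp2, and the 4 higher were the crygm2d1 unit, crygn1, mipa and grifin. The same counts were not made over all genes on this scale, so they have no background to be read against. cryaa had 2.18, 2.44 and 2.99 in the mutant, against 3.07, 3.36 and 3.50 in wild type. The beta share of all crystallin FPKM was 32.8%, 32.5% and 33.2% in the mutant and 34.7%, 34.5% and 36.2% in wild type, and the merged crygm2d unit held 51.7%, 52.4% and 51.4% in the mutant and 49.3%, 49.9% and 47.7% in wild type. Neither share overlapped between genotypes. Shares of one whole move against each other, and outside the unit the beta share was 68.0%, 68.3% and 68.3% in the mutant and 68.4%, 68.9% and 69.2% in wild type, where the genotypes still did not overlap but lay within a narrow range. grifin had 2.02, 1.72 and 1.90 per 1000 FPKM of crystallins in the mutant, against 1.44, 1.16 and 1.16 in wild type. mipa had 6.98, 6.01 and 6.32 in the mutant, against 5.66, 5.60 and 5.18 in wild type.

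Of 13 other lens fiber genes, 4 were tested and 0 passed, where 2.42% of all genes tested were called. All 4 had log2 fold changes below 0, with a median of -0.37. lim2.2, too low for a test, averaged 0.672 FPKM in the mutant and 0.444 FPKM in wild type. lim2.3 had 14.4, 22.7 and 19.3 FPKM in the mutant, against 24.2, 24.9 and 25.0 FPKM in wild type, with no overlap (log2 fold change -0.40, SE 0.15, limma adjusted p = 0.249). lgsn, which encodes lengsin, had 5.07, 8.82 and 6.07 FPKM in the mutant and 8.34, 8.50 and 8.78 FPKM in wild type. The fiber connexin gene cx23 had 4.61, 6.77 and 6.28 FPKM in the mutant and 6.25, 6.67 and 6.73 FPKM in wild type. Both of these overlapped between genotypes. Without mutant replicate 1 the log2 fold changes were -0.23 for lim2.3, -0.19 for lgsn and -0.0042 for cx23. When mutant replicate 2 was the one left out, they were -0.54 for lgsn and -0.24 for cx23.

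Of 16 regulators of lens development, 7 were tested and 0 passed, where 2.42% of all genes tested were called. Of the 7, 4 had log2 fold changes below 0, and the median was -0.06. The homeobox gene six3b had 16.0, 18.6 and 16.3 FPKM in the mutant, against 20.1, 21.8 and 20.4 FPKM in wild type, with no overlap (log2 fold change -0.28, SE 0.09, limma adjusted p = 0.168). pax6a, an eye selector gene, had 24.7, 25.0 and 43.0 FPKM in the mutant and 25.8, 30.5 and 28.9 FPKM in wild type. The RNA-binding protein gene celf1 had 42.7, 38.5 and 41.3 FPKM in the mutant and 43.6, 42.0 and 41.8 FPKM in wild type. hsf4, low and named after its values were seen, had 0.545, 0.968 and 1.46 FPKM in the mutant. It had 1.51, 1.74 and 1.82 FPKM in wild type, with no overlap (log2 fold change -0.46, SE 0.21, limma adjusted p = 0.337). pax6a, six3b and celf1 are also known to be expressed outside the lens.

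The small heat shock proteins that are not lens crystallins, relatives of the alpha crystallins, held the only call among these lists. Of 10 genes 5 were tested and 1 fell, where 2.42% of all genes tested were called (1.2% lower in the mutant). hspb7, known from heart and skeletal muscle, had 5.13, 5.38 and 5.06 FPKM in the mutant, against 7.87, 7.99 and 7.81 FPKM in wild type (log2 fold change -0.52, SE 0.09, limma adjusted p = 0.0332). The call was lost when any 1 of the 6 libraries was left out, with limma adjusted p of 0.0507 to 0.119, while the log2 fold change stayed between -0.54 and -0.51. The other tested genes hspb1, hspb6, hspb8 and hspb15 did not pass, and the median of the 5 was -0.07. hspb6, named after its values were seen, went the other way, with 5.28, 5.90 and 6.35 FPKM in the mutant. It had 4.27, 4.62 and 5.02 FPKM in wild type, with no overlap (log2 fold change 0.28, SE 0.11, limma adjusted p = 0.291).

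Markers of neighbouring eye tissues held no call, where 2.42% of all genes tested were called. The order of the libraries in photoreceptor markers differed from that in lens genes. Of 42 photoreceptor markers 36 had a total and 30 were tested, of which 0 passed, 5 had log2 fold changes below 0, and the median was 0.33. They summed to 2617, 2383 and 1300.5 FPKM in the mutant and to 1386, 1355 and 1894 FPKM in wild type, so that mutant replicate 3 stood below all other libraries and replicates 1 and 2 above them. The ultraviolet opsin gene opn1sw1 had 412, 359.6 and 179 FPKM in the mutant and 189.7, 183 and 273 FPKM in wild type. gngt2b, a cone transducin subunit, and opn1lw2, a red opsin, showed the same library order within the mutant. Without mutant replicate 3, opn1lw2 passed the test (log2 fold change 0.77, limma adjusted p = 0.0398), against 0.50 and 0.357 with all 6 libraries. The rod opsin rho was listed only in mutant replicate 2. gnb1b and rom1a, named after their values were seen, were lower in the mutant without overlap (log2 fold changes -0.18 and -0.46, limma adjusted p of 0.247 and 0.323). gngt1, named likewise, was higher without overlap, though only just (log2 fold change 0.55, limma adjusted p = 0.179). gucy2f, also named likewise and too low for a test, was listed in every mutant library and in no wild-type library. Of 7 retinal pigment epithelium markers, 5 were tested, 0 passed and 4 had log2 fold changes below 0, with a median of -0.15 and sums of 35.1, 36.0 and 30.7 FPKM in the mutant and 36.1, 41.1 and 35.9 FPKM in wild type. rpe65a, the visual cycle isomerase, had 3.86, 4.02 and 3.44 FPKM in the mutant, against 6.33, 10.5 and 5.18 FPKM in wild type, with no overlap (log2 fold change -0.75, SE 0.22, limma adjusted p = 0.148), and its log2 fold change was -0.50 without wild-type replicate 2. lrata, a retinoid acyltransferase gene named after its values were seen, went the other way, with 4.80, 4.66 and 3.91 FPKM in the mutant, against 3.18, 3.66 and 3.79 FPKM in wild type, with no overlap (log2 fold change 0.26, SE 0.12, limma adjusted p = 0.363). rlbp1b and stra6 overlapped. The part of retinal RNA in the lens values was not tested.

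**Figure D5:**
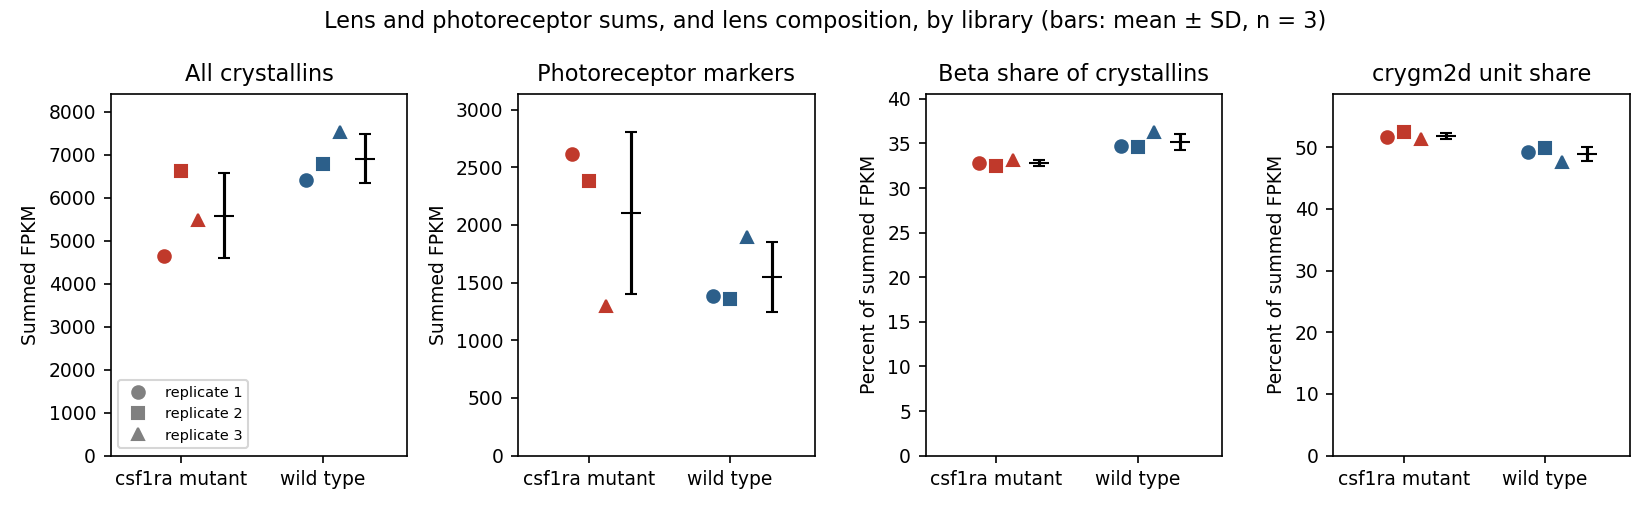
Summed FPKM of all crystallins and of the photoreceptor markers, and the percent of summed crystallin FPKM held by beta crystallins and by the merged crygm2d unit; points are libraries, mutant on the left and wild type on the right, with the mean and SD of 3 libraries, and each axis starts at 0. Crystallins average 5582 FPKM in the mutant and 6903 FPKM in wild type, photoreceptor markers range from 1300.5 to 2617 FPKM in the mutant and from 1355 to 1894 FPKM in wild type, and neither share overlaps between genotypes.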

How the data were processed

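Each library's table holds FPKM values of transcript-structure events, per the file headers. Events at 0 are not listed, but a missing listing need not mean 0. cryba1l2, for example, had 6.88 to 12.0 FPKM at its first exon and no last exon listed in any library. The authors' deposited table for the series holds a p-value and an adjusted p-value per transcript, per the file headers; its value and fold columns were not used, since their names do not give the genotype. The submitters' processing notes name, with no order, Cufflinks 2.2.1, SAMtools 0.1.18, HISAT2 2.0.1, Trimmomatic 0.30, DESeq and HTSeq 0.6.1, and the build GRCz10. Their settings are not given in the sources used. Gene names and loci come from the authors' deposited table, with starts counted from 1.

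For each gene and library, first-exon and last-exon FPKM were summed separately and the larger sum was kept; both sums agreed within 1% for 22 of the 28 fitted lens genes. The test was that of limma 3.58.1 (R 4.3.3; trend and robust options), two-sided, on log2(FPKM + 1) with genotype alone as a term. It took genes reaching 1 FPKM in 3 or more libraries, with Benjamini-Hochberg adjustment and a threshold of 0.05. Missing listings entered as 0. Sums, ratios and counts were computed with pandas 2.3.3. The procedure was tested on simulated data.

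The genes and lists were chosen with earlier results of these data known. Named by rule were csf1ra, the other fiber genes, the alpha genes, the 8 beta and 8 gamma genes of highest mean FPKM, genes called by limma or significant in the authors' deposited table, and, per further list, called genes or otherwise the 3 of highest mean. crybgx, crybb1l3, cryba1a, crygm5 and crygmxl1 were added to account for the remaining fitted and paired genes. lim2.2, lrata, hsf4, hspb6, gnb1b, rom1a, gngt1 and gucy2f were added after their values were seen. Alternatives were other pseudocounts (0.1 and 0.5), filters, rescalings, limma without its options, the replicate number as a block, first or last exons alone, genes listed in all 6 libraries, and leaving out each library. The separate fit of the crygm2d first exons and the sums without the crygm2d1 unit were chosen after seeing the data.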

Additional observations from a re-analysis of the deposited data

How the results depend on the processing

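Limma called 0 of the lens genes under all 18 alternatives, which included the separate fit of the crygm2d first exons, chosen after seeing the data; the smallest adjusted p of a named lens gene in any of them was 0.0587. The call count over all genes was 374, and it was 232 with genes listed in all 6 libraries alone and 133 to 450 when 1 library was left out, with 450 without mutant replicate 3 and at most 152 without any other. Over all genes tested, the deviations of same-numbered libraries had correlations of -0.027, 0.0027 and 0.0064. With so few libraries these values cannot settle whether the numbers pair them. With the replicate block 115 genes were called, and 0 lens genes. Without a filter the alpha median was -0.36, because the low cryabb then entered. Leaving out 1 library gave medians of -0.78 to -0.46 for alpha, -0.49 to -0.33 for beta, -0.36 to -0.18 for gamma, -0.29 to -0.08 for the other fiber genes and -0.41 to -0.20 for all 28, and log2 ratios of summed FPKM of -0.45 to -0.19 for all crystallins and -0.40 to -0.14 for gamma. The sign turned for crygm2d1 on last exons alone (0.17) and for cryba2a without wild-type replicate 3 (range -0.28 to 0.019 when 1 library was left out). Among other eye genes it turned for rlbp1b on first exons alone (0.054) and for celf1 (0.13) and pax6a (-0.19) on last exons alone, and within the ranges when 1 library was left out of rlbp1b (-0.073 to 0.027) and pax6a (-0.18 to 0.21). The causes were not tested. With a pseudocount of 0.1 the log2 fold change of csf1ra was -4.48 and its call held. hspb7 was not called with the replicate block (limma adjusted p = 0.107). No scaling moved the median of all genes by more than 0.1. Read depth is unknown, so what it limits cannot be stated.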

Other observations

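Some lens genes were listed with more than 1 transcript structure, and these values were not tested. lim2.4 has a skippable exon of 72 bases (GRCz10 chromosome 19, 10631986 to 10632057, minus strand), which was included in 23.6%, 21.6% and 21.2% of its FPKM in the mutant and in 20.9%, 21.5% and 22.4% in wild type, so the genotypes overlapped. cryba2b has 2 alternative first exons that overlap in position. The lesser held 2.95%, 21.1% and 18.6% of first-exon FPKM in the mutant and 1.07%, 12.9% and 14.7% in wild type, low in replicate 1 of both genotypes. The main last exon of bfsp2 held 89.8%, 70.5% and 100% of its last-exon FPKM in the mutant and 74.1%, 73.4% and 90.2% in wild type.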
